A study of Mus musculus with 8 samples.

Results

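The genes of heme synthesis and iron-sulfur cluster assembly described here are 31 genes taken as a fixed list of symbols grouped by function. All 31 were found among the 35975 genes to which transcripts were summed, and all 31 passed the filter on low counts that left 13343 genes for testing. The RNA came from fibrosarcomas, tumors of connective tissue type, that grew from syngeneic cells implanted under the skin of wild-type C57BL/6 mice. Tumors were digested with collagenase B and DNase I, red cells were lysed, and the cell suspension was passed over magnetic columns. The 4 iron positive libraries hold RNA from the eluted cells, which the column had retained, and the 4 iron negative libraries hold RNA from the flowthrough. All 8 libraries carry the genotype WT C57BL/6, and the labels name no drug, no antibody sort and no age. Each fraction has the tags 3L, 3R, 4R and 5L, and values of single libraries are given below in that tag order. What the tags stand for is not given, and nothing says that they are different animals. The p-values therefore speak only to the spread among these samples, which may be technical.

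Heme, the iron porphyrin of hemoglobin, cytochromes and NADPH oxidase, is made by a chain of enzymes that starts in the mitochondrion with glycine and succinyl-CoA, passes through the cytosol and ends in the mitochondrion, where ferrochelatase inserts iron. Iron-sulfur clusters are built in the mitochondrion on a scaffold protein from iron and from sulfur taken off cysteine, are handed to carrier proteins by chaperones, and are made for cytosolic and nuclear proteins by a separate set of factors. Both pathways draw on iron that mitoferrins carry into the mitochondrion. In macrophages, which take up dying red cells, heme is also broken down, so the genes that make heme and the genes that degrade it can be read side by side.

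Estimated counts totalled 19.0 to 24.3 M per library, and the lowest estimated count of any of the 31 genes in any library was 121 (Lyrm4). Macrophage transcripts were abundant in both fractions: Csf1r, the macrophage growth factor receptor, averaged 1814 CPM (counts relative to the scaled library total) in iron positive and 2766 CPM in iron negative libraries. Of 12 macrophage markers 5 were lower in iron positive libraries, and their summed level was 21210 to 28510 CPM there and 28270 to 31360 CPM in iron negative libraries. All 12 endothelial markers were higher, with a summed level of 225 to 1574 CPM in iron positive libraries, highest in 3R and lowest in 3L, against 68.9 to 111 CPM in iron negative libraries. Also higher were 7 of 9 pericyte and smooth muscle, 7 of 8 skeletal muscle, 3 of 6 neutrophil and 2 of 9 fibroblast markers, while 1 of 5 T and NK cell markers was lower. DESeq2 called 8 of 9 fibroblast markers higher, as did edgeR with tags as blocks, while the macrophage scaling described below called 0, with a summed level of 497 to 4714 CPM in iron positive libraries, against 129 to 392 CPM in iron negative libraries. With the block 9 macrophage and 3 T and NK cell markers were lower, and 8 pericyte and smooth muscle, 7 skeletal muscle and 4 neutrophil markers were higher. Of 6 red cell and erythroid genes tested none passed in edgeR, 3 had an unadjusted p under 0.05, DESeq2 called 1 higher, and 4 globin genes were higher with the tag as a block. Of 6 cycling cell markers none passed, 2 had an unadjusted p under 0.05, DESeq2 called 1 lower, and 3 were lower with the block. In these bulk samples fewer cells of a type and less RNA per cell cannot be told apart, and the part of these cell types in the results below was not tested except where a value is given.

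Most genes of both pathways differed little between the fractions. Of the 31 genes, 1 was higher in iron positive libraries, Slc25a37, and 0 were lower (quasi-likelihood test of edgeR, adjusted p under 0.05 by Benjamini-Hochberg over all genes tested), against 7.91% of all genes called higher, 5.08% called lower and 13.0% called in either direction. Of the 30 genes that were not called, 4 had an unadjusted p under 0.05, all with a lower estimate, and DESeq2, which called 12.8% of all genes higher and 8.02% lower, called Slc25a37 higher and none of the 31 lower. The shares over all genes depended on the tool and the libraries: limma voom called 1.42% higher and 2.05% lower, again with Slc25a37 as the gene called among the 31, and edgeR without any 1 iron negative library called 0 to 15 genes higher, 0 to 9 lower and none of the 31. With Slc25a37 that makes 5 of 31 genes at an unadjusted p under 0.05, against 30.8% of all genes. With the tag added as a block, 12.2% of all genes were called higher and 9.48% lower, and in that fit Slc25a37 was higher and Alas1, Tmem14c and Iscu were lower, each by less than 0.3 on the log2 scale.

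Most fold changes were small as well as uncalled without the block. The median log2 fold change (iron positive over iron negative) was -0.014 over the 31 genes and -0.006 over all genes, and the median of its absolute value was 0.055 over the 31 genes and 0.17 over all genes. For 26 of the 31 genes (83.9%) the log2 fold change lay within 0.2 of 0, which held for 55.8% of all genes. The 95% interval excluded a change of 2-fold in either direction for 30 of 31 genes (76.3% of all genes), a change of 1.5-fold for 29 (60.8% of all genes) and a change of 1.25-fold for 19 (31.8% of all genes). Estimates were positive for 11 genes and negative for 20. All 4 same-tag pairs were lower for 6 of the 31 genes and higher for 4, against 23.9% and 22.0% of all genes, so the same sign in every pair was not more frequent among these genes. The sign of small values depends on the scaling. When libraries were scaled to the summed counts of the 12 macrophage markers, all genes shifted up by 0.211 (median, log2), and 17 of the 31 estimates changed sign. The medians were then 0.195 over the 31 genes and 0.205 over all genes. Over the 12 markers themselves the median was -0.342 before and -0.142 after this scaling, so it did not bring single markers to equal levels. Under that scaling 8.81% of all genes were called higher and 0.0974% lower, and Slc25a37 was again the only one of the 31 called. The genes also varied little within a fraction, with a median coefficient of variation of 7.88% in iron positive and 7.59% in iron negative libraries, against 12.7% and 8.98% over all genes in the same 2 fractions. The values over all genes include genes just above the filter on low counts and were not matched to the levels of the 31 genes. The part of expression level in these contrasts was not tested.

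**Figure D1:**
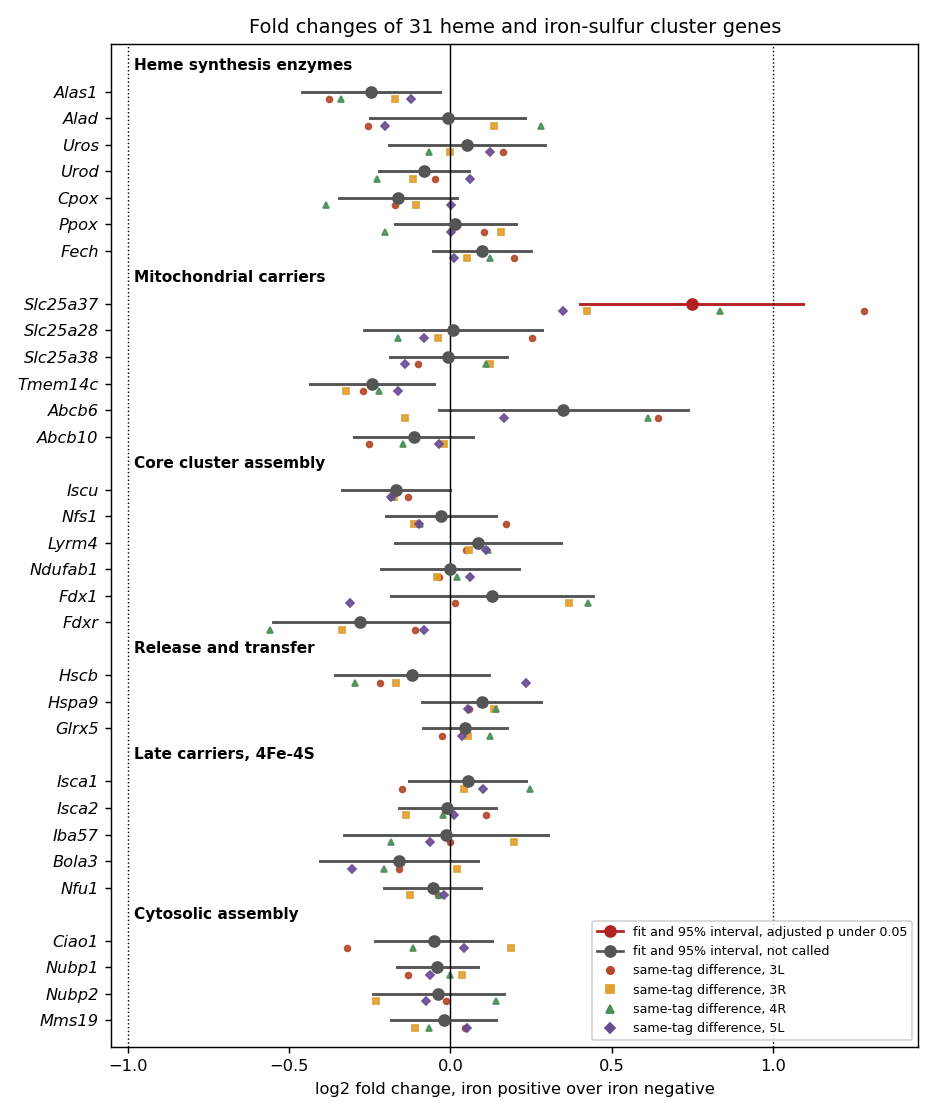
Log2 fold change of iron positive over iron negative libraries for each of the 31 genes, grouped by role; large points and bars are the edgeR estimate and its 95% interval, and small symbols are the 4 differences between libraries of equal tag. Slc25a37, in red, is the gene past the threshold, its 4 small symbols lie right of 0, and 26 of the 31 estimates lie within 0.2 of 0.

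The enzymes of heme synthesis showed no called difference without the block, and the estimate furthest from 0 was that of the enzyme at the head of the pathway. Alas1, which encodes 5-aminolevulinate synthase, the rate-limiting step of heme synthesis outside the red cell lineage, lies at chr9:106233455-106248654 on the minus strand (GRCm38). It had 80.5, 84.6, 76.3 and 101 CPM in iron positive libraries, against 104, 95.3, 96.6 and 110 CPM in iron negative libraries. Each iron positive library was below the iron negative library of its tag, but the fractions overlapped, since iron positive 5L exceeded 2 of the iron negative libraries. The log2 fold change was -0.25 ± 0.09 (SE; 95% interval -0.46 to -0.03), with adjusted p = 0.114, and with the tag as a block it was -0.25 ± 0.06 with adjusted p = 0.0295 (edgeR). The block call was absent without the libraries of tag 3L (adjusted p = 0.122) or 4R (0.135). Without iron positive 5L the fit without the block gave -0.34 with adjusted p = 0.0198, and with the macrophage scaling the estimate was -0.04. Urod, uroporphyrinogen decarboxylase, had 27.4, 26.0, 25.6 and 29.2 CPM in iron positive libraries, against 28.3, 28.2, 30 and 28.0 CPM in iron negative libraries. Its fractions overlapped, and its log2 fold change was -0.08 ± 0.06 (adjusted p = 0.407). The other 5 enzymes had log2 fold changes of -0.16 (Cpox, coproporphyrinogen oxidase), -0.01 (Alad, which condenses the first intermediate), 0.01 (Ppox, protoporphyrinogen oxidase), 0.05 (Uros, uroporphyrinogen III synthase) and 0.10 (Fech, ferrochelatase), with adjusted p of 0.206 or more. Fech was higher in all 4 same-tag pairs by small amounts, at 35 to 41.0 CPM in iron positive and 34.7 to 37.7 CPM in iron negative libraries. Summed over the 7 enzymes, the level was 221 to 248 CPM in iron positive and 242 to 256 CPM in iron negative libraries.

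A sequence feature that the list did not use was looked for in the promoters, taken as 250 bases before to 50 bases after the RefSeq start site (GRCm38.p6), which were found for 26 of the 31 genes. No promoter was found for Fech, Slc25a37, Iscu, Hscb and Hspa9. The motif of NRF1, a factor of nuclear genes for mitochondrial proteins, was searched on both strands as the letters GCGC, an A, any base and GCGC again, with a site that reads as the motif on both strands counted once. It occurred in 7 of 26 promoters (26.9%), those of Alas1, Uros, Abcb10, Isca1, Nfu1, Nubp1 and Mms19, against 11.2% of the 10193 promoters of tested genes and 5.19% of 27025 promoters. The core of the antioxidant response element, TGANNNNGC, occurred in 14 of 26 (53.8%), against 47.6% of the promoters of tested genes. The promoter of Alas1 is shown because it held 2 NRF1 matches, at positions -224 and -195 from the start site, in capitals. It is the stretch chr9:106247681-106247980, printed 5′ to 3′ on the minus strand:
Alas1 promoter: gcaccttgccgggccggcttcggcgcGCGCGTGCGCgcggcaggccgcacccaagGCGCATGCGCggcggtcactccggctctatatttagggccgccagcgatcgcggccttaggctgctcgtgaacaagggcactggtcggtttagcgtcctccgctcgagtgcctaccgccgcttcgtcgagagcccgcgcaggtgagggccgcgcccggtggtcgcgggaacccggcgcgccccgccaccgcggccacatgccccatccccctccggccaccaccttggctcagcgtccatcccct
Matches of 3 other genes, 1 per role, are shown with 15 bases on each side to compare the base that the motif leaves free:
Uros, chr7:133709318-133709357, minus strand: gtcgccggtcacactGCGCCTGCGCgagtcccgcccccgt
Abcb10, chr8:123983130-123983169, minus strand: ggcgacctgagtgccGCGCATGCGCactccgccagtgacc
Nubp1, chr16:10411842-10411881, plus strand: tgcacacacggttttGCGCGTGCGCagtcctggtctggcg
Of the 7 genes with a match none was called in edgeR without the block. That outcome was fixed, since Slc25a37, the only gene called there, had no promoter to search. A match describes letters in the window only.

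Slc25a37, which encodes mitoferrin 1, the carrier that brings iron into mitochondria and is best known from developing red cells, was the gene of the list that rose. It lies at chr14:69241848-69285112 on the minus strand. It had 92.0, 60.1, 75.9 and 56.5 CPM in iron positive libraries, against 37.8, 44.8, 42.5 and 44.4 CPM in iron negative libraries. Every iron positive library lay above every iron negative one, 3L and 4R furthest, and tag 3L had both the highest iron positive and the lowest iron negative value. The means were 71.1 ± 16.3 CPM in iron positive and 42.4 ± 3.2 CPM in iron negative libraries (SD, n = 4 each), a log2 fold change of 0.75 ± 0.15 (95% interval 0.40 to 1.09; edgeR adjusted p = 0.0237; 0.0328 with the block). The call was absent in edgeR without iron positive 4R (adjusted p = 0.0653) and without any 1 of the iron negative libraries (0.0648 to 0.0765), and the block call was absent without the libraries of tag 4R (0.69, adjusted p = 0.141). DESeq2 called it with each library left out in turn, with adjusted p between 2.1e-06 and 0.00249. Red cell genes had a summed level of 48.9, 215, 91.7 and 44.0 CPM in iron positive libraries, highest in 3R, against 13.2, 62.2, 29.6 and 19.0 CPM in iron negative libraries. Neutrophil markers, like Slc25a37, were highest in iron positive 4R and 3L, with a summed level of 119.5, 73.0, 148 and 90.5 CPM in iron positive libraries, against 74.8, 84.7, 80.2 and 71.8 CPM in iron negative libraries. Alas2, the red cell form of the first heme enzyme, was at 0.449 to 1.61 CPM in iron positive and 0.174 to 1.02 CPM in iron negative libraries. Endothelial markers were highest in 3R, and without iron positive 3R the log2 fold change of Slc25a37 was 0.82 (adjusted p = 0.0234). The part of red cells, neutrophils and endothelial cells in the level of Slc25a37 was not tested.

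Ratios of means differed among the transcripts of Slc25a37, but no transcript share passed adjustment. Most of the gene's signal did not lie in the spliced coding form. Slc25a37-201, the full coding transcript, had 4.33, 4.32, 5.37 and 3.44 TPM (a level per transcript length) in iron positive libraries, against 1.89, 2.26, 2.62 and 1.21 TPM in iron negative libraries, a ratio of means of 2.19 with no overlap. Slc25a37-203, which the annotation calls a retained intron transcript, had 13.1, 9.38, 11.3 and 8.45 TPM in iron positive libraries, against 4.80, 6.34, 6.102 and 7.17 TPM in iron negative libraries, a ratio of 1.73, also with no overlap. Slc25a37-204, annotated as a target of nonsense mediated decay, had 9.11, 4.25, 7.997 and 4.64 TPM in iron positive libraries, against 4.73, 5.52, 4.70 and 4.28 TPM in iron negative libraries, and there the fractions overlapped. The retained intron form held 66.6% of the gene's estimated counts in iron positive and 66.8% in iron negative libraries. The share of Slc25a37-204 in the gene's TPM was 27.2% ± 5.1 in iron positive and 35.4% ± 3.4 in iron negative libraries (SD, n = 4 each), with no overlap. The exact permutation test of that share gave p = 0.0286, the smallest that 4 against 4 libraries allow, and adjusted p = 0.552 over the 58 transcripts tested. For any to pass, 34 of the 58 would have to reach that p together. With counts summed over coding transcripts only, a setting chosen after seeing the data, the log2 fold change of Slc25a37 was 1.10 (edgeR adjusted p = 0.0241; 0.00225 with the block), where 7.75% of all genes were called higher (12.4% with the block). Reads in exons that these transcripts share are divided among them by the estimation, so a value of 1 transcript is not a count of reads that only it can hold.

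The letters at which the coding transcript and the other forms part are shown because they decide which reads belong to which. The last 30 bases of the shared exon (chr14:69249394-69249423, GRCm38, minus strand) are in lower case, and the 30 bases that follow are in capitals. In the coding transcript these are the start of the next exon (chr14:69247608-69247637), and in the other 2 they are the start of an intron of 1756 bases (chr14:69247638-69249393):
Slc25a37-201: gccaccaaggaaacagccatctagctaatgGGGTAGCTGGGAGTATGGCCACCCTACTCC
Slc25a37-203: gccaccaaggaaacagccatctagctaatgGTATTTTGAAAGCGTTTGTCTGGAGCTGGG
Slc25a37-204: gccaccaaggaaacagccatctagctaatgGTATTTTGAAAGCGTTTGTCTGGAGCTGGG
Slc25a37-203 and Slc25a37-204 are identical over this window, so reads that cross it separate both from the coding form but not from each other.

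**Figure D2:**
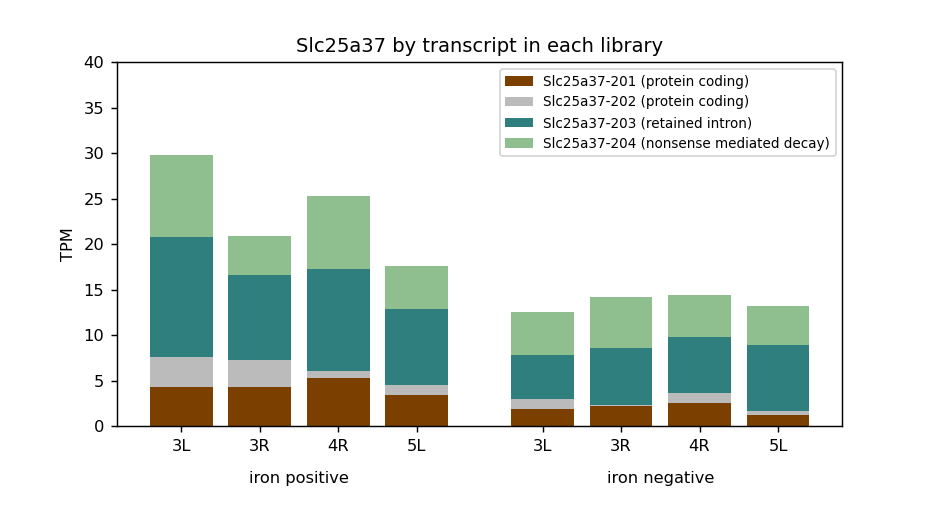
TPM of the 4 annotated Slc25a37 transcripts, stacked, in each library by tag, with the 4 iron positive libraries on the left and the 4 iron negative libraries on the right. The bottom segment, the coding transcript Slc25a37-201, is 3.44 to 5.37 TPM in iron positive and 1.21 to 2.62 TPM in iron negative libraries, and the retained intron form is the tallest segment in every library.

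None of the other 5 mitochondrial carriers was called without the block, and Tmem14c and Abcb10 were lower in every pair. Slc25a28, mitoferrin 2, the iron carrier of cells other than red cell precursors, had 80.0, 61.4, 51.8 and 62.2 CPM in iron positive libraries, against 67.2, 63.1, 58.0 and 65.9 CPM in iron negative libraries. The iron positive 3L library was the highest of all 8 and iron positive 4R the lowest, and the log2 fold change was 0.01 ± 0.12 (95% interval -0.27 to 0.28; adjusted p = 0.974). Tmem14c (chr13:41016292-41022586, plus strand), a protein of the inner mitochondrial membrane that moves protoporphyrinogen inward, had 130, 106, 113 and 126 CPM in iron positive libraries, against 157, 133, 132 and 141 CPM in iron negative libraries. Its fractions did not overlap, although the highest iron positive value (130.1) lay just under the lowest iron negative one (132.2). Of the 31 genes, 1 lay wholly above (Slc25a37) and 1 wholly below (Tmem14c), against 11.2% and 10.3% of all genes. The log2 fold change of Tmem14c was -0.24 ± 0.08 (adjusted p = 0.0897), with the block it was -0.24 ± 0.05 (adjusted p = 0.01998), and with the macrophage scaling -0.04. The block call was absent without the libraries of tag 3L, 3R or 4R, and without iron positive 3L DESeq2 called Tmem14c lower (-0.29, adjusted p = 0.0267).

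Abcb6 and Abcb10 are ABC transporters, Abcb6 linked to porphyrin transport and Abcb10 to the stability of mitoferrin 1. Abcb6 had 18.5, 10.3, 14.7 and 12.6 CPM in iron positive libraries, against 11.8, 11.4, 9.58 and 11.2 CPM in iron negative libraries. It was above the iron negative library of its tag in 3L, 4R and 5L and below it in 3R, and its log2 fold change of 0.35 ± 0.17 was not called (95% interval -0.03 to 0.74; adjusted p = 0.199; 0.159 with the block). Without the libraries of tag 3R the block gave 0.49 with adjusted p = 0.0422, and without iron positive 3R DESeq2 gave 0.48 with adjusted p = 0.0379. Abcb10 (log2 fold change -0.11) and Slc25a38, a mitochondrial glycine carrier needed for heme synthesis (-0.01), had adjusted p of 0.383 and 0.969. Slc25a38 lay between 14.7 and 14.97 CPM in all 4 iron positive libraries and between 13.7 and 16.2 CPM in iron negative libraries.

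**Figure D3:**
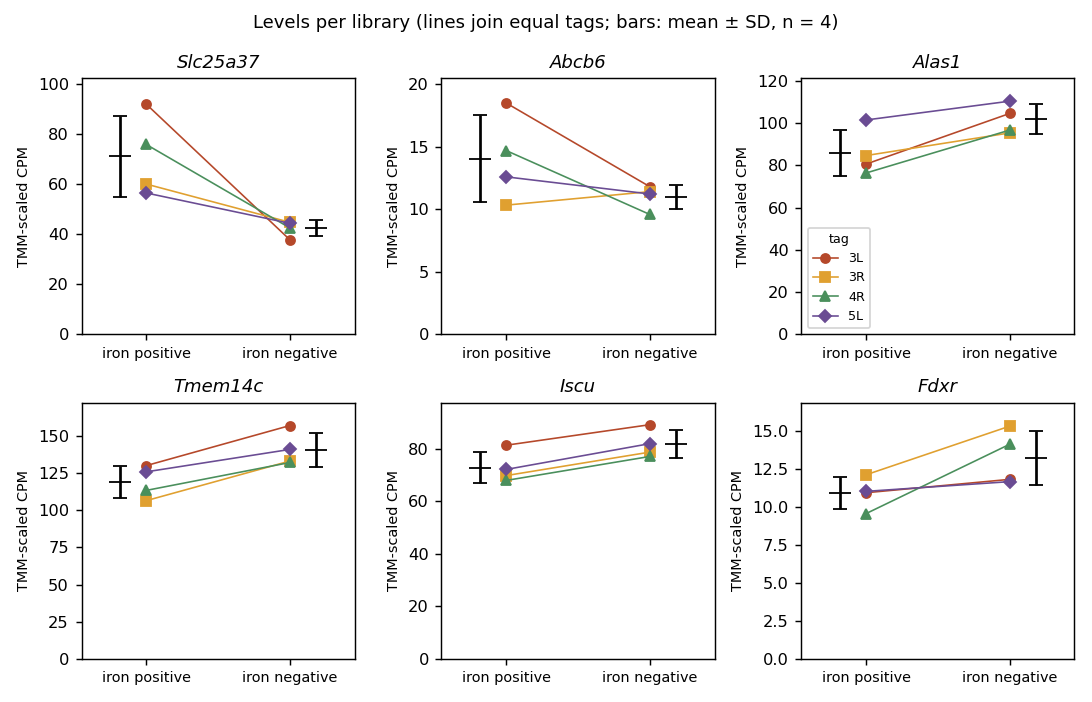
Scaled CPM of 6 genes in each library, with the iron positive fraction left and the iron negative fraction right; lines join libraries of equal tag, and bars are the mean ± SD of 4 libraries. Slc25a37 is higher in iron positive libraries for every tag, Alas1, Tmem14c, Iscu and Fdxr are lower for every tag, and Abcb6 is lower for 3R and higher for the other tags.

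No gene of core cluster assembly was called without the block. Iscu, the scaffold on which clusters form, lies at chr5:113772748-113778288 on the plus strand. It had 81.4, 69.8, 68.0 and 72.2 CPM in iron positive libraries, against 89.2, 78.8, 77.1 and 82.0 CPM in iron negative libraries. Each iron positive library was below its same-tag counterpart, and the fractions overlapped because iron positive 3L exceeded iron negative 3R and 4R. The log2 fold change was -0.17 ± 0.07 (adjusted p = 0.162), and with the block -0.17 ± 0.05 (adjusted p = 0.0457), while the macrophage scaling turned it to 0.04. No block fit without the libraries of 1 tag called it, and without iron positive 3L DESeq2 did (-0.22, adjusted p = 0.0364). Ndufab1, the mitochondrial acyl carrier protein, which also binds the cysteine desulfurase complex, had 51.6, 42.9, 42.4 and 44.3 CPM in iron positive libraries, against 52.8, 44.2, 41.9 and 42.5 CPM in iron negative libraries. Its log2 fold change was 0.00 ± 0.09 (95% interval -0.22 to 0.21), and the libraries of 3L were the highest in both fractions. Fdxr, the ferredoxin reductase that feeds electrons to assembly, was at 10.9, 12.1, 9.55 and 11.01 CPM in iron positive libraries, against 11.8, 15.3, 14.1 and 11.6 CPM in iron negative libraries. It was lower in all 4 pairs, with a log2 fold change of -0.28 ± 0.12 that did not pass (adjusted p = 0.151; 0.122 with the block). The remaining genes of the core had log2 fold changes of -0.03 (Nfs1, the cysteine desulfurase), 0.08 (Lyrm4, its partner ISD11) and 0.13 (Fdx1, a ferredoxin), with adjusted p of 0.569 or more.

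Genes of cluster release and transfer were likewise not called, without the block or with the block alone. Hspa9, the mitochondrial chaperone mortalin, which takes the cluster off the scaffold with its co-chaperone, had 235, 218, 207 and 199 CPM in iron positive libraries, against 226, 199, 188 and 191 CPM in iron negative libraries. It was higher in all 4 pairs, but by no more than 0.141 on the log2 scale, and its log2 fold change was 0.10 ± 0.08 (adjusted p = 0.46; 0.231 with the block). With the block and the macrophage scaling together Hspa9 was called higher (0.30, edgeR adjusted p = 0.0307). Hscb, the co-chaperone, had 16.6, 14.7, 15 and 16.9 CPM in iron positive libraries, against 19.3, 16.6, 18.4 and 14.4 CPM in iron negative libraries. It was lower in 3 pairs and higher in 5L, with a log2 fold change of -0.12 ± 0.11 (adjusted p = 0.482). Glrx5, the glutaredoxin that passes clusters on, stood at 0.05 ± 0.06 (adjusted p = 0.626).

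Among the late carriers, which build and deliver 4Fe-4S clusters, no gene was called and every 95% interval excluded a change of 1.5-fold. Nfu1, a late carrier for lipoate synthesis and respiratory chain proteins, had 36.0, 31.6, 31.8 and 32.8 CPM in iron positive libraries, against 36.9, 34.5, 32.6 and 33.2 CPM in iron negative libraries. It was lower in all 4 pairs, with a log2 fold change of -0.05 ± 0.07 (adjusted p = 0.617). Isca2, an A-type carrier, had 18.8, 17.2, 17.4 and 17.3 CPM in iron positive libraries, against 17.4, 19.0, 17.7 and 17.1 CPM in iron negative libraries. The fractions overlapped throughout, with a log2 fold change of -0.01 ± 0.07 (adjusted p = 0.934). Its partner Isca1 had 0.05, Iba57, which works with both, -0.01, and Bola3, a late transfer factor, -0.16, with adjusted p of 0.358 or more.

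The cytosolic factors had the narrowest range of the 6 roles, with all 4 log2 fold changes between -0.05 and -0.02. Nubp2, part of the cytosolic scaffold, had 41.6, 33.0, 44.0 and 40.7 CPM in iron positive libraries, against 42.0, 38.7, 39.9 and 42.8 CPM in iron negative libraries. The iron positive 3R library was the lowest and iron positive 4R the highest of all 8, and the log2 fold change was -0.04 ± 0.09 (adjusted p = 0.816). Mms19, which hands clusters to DNA repair and replication proteins, had 75.5, 80.9, 80.1 and 87.8 CPM in iron positive libraries, against 73.2, 87.3, 83.8 and 84.7 CPM in iron negative libraries. It was lower in 2 pairs and higher in 2, with a log2 fold change of -0.02 ± 0.07 (adjusted p = 0.878). Ciao1, another targeting subunit, had -0.05 and Nubp1, the partner of Nubp2, -0.04. With the macrophage scaling all 4 estimates were positive, between 0.16 and 0.19. Over coding transcripts alone, which held 6.92% of its TPM, Mms19 had a log2 fold change of 0.88 (adjusted p = 0.479; 0.65 and 0.60 with the block).

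Levels of the 31 genes were compared per length, as mean TPM over the 8 libraries, and spanned 2.94 TPM (Iba57) to 246 TPM (Tmem14c) with a median of 32.3 TPM. Tmem14c stood alone at the top, and its lowest library (209 TPM) exceeded the highest library of every other gene. A second tier held Iscu (138 TPM), Alas1 (135 TPM), Ndufab1 (118 TPM), Nfu1 (101 TPM) and Hspa9 (97.3 TPM), whose neighbours in the order overlapped over libraries. The next gene was Slc25a28 at 46.2 TPM, and no library of it reached the lowest value of Hspa9. From Slc25a28 down to Nubp1 (30.97 TPM) neighbours overlapped, as they did from Nfs1 (22.1 TPM) to Alad (14.8 TPM), a run that includes Slc25a37 at 18.5 TPM, and from Cpox (11.1 TPM) to Lyrm4 (4.50 TPM). The first enzyme of heme synthesis, Alas1, had 9.14 times the TPM of the next, Alad, over all transcripts and 5.65 times over coding transcripts. Alas1-211, a form of 460 bases annotated as coding, held 50.2% of the Alas1 TPM, and the coding transcripts of Alas1 together held 60.5%. The ratio over coding transcripts therefore rests mostly on that short form. Mitoferrin 2 had 2.0 times the TPM of mitoferrin 1 in iron positive libraries and 3.35 times in iron negative libraries, and over coding transcripts of all 8 libraries 5.94 times. The coding level of mitoferrin 1 includes Slc25a37-202, a form of 342 bases. It averaged 2.002 TPM in iron positive and 0.697 TPM in iron negative libraries, on 0.211% and 0.134% of the gene's estimated counts.

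**Figure D4:**
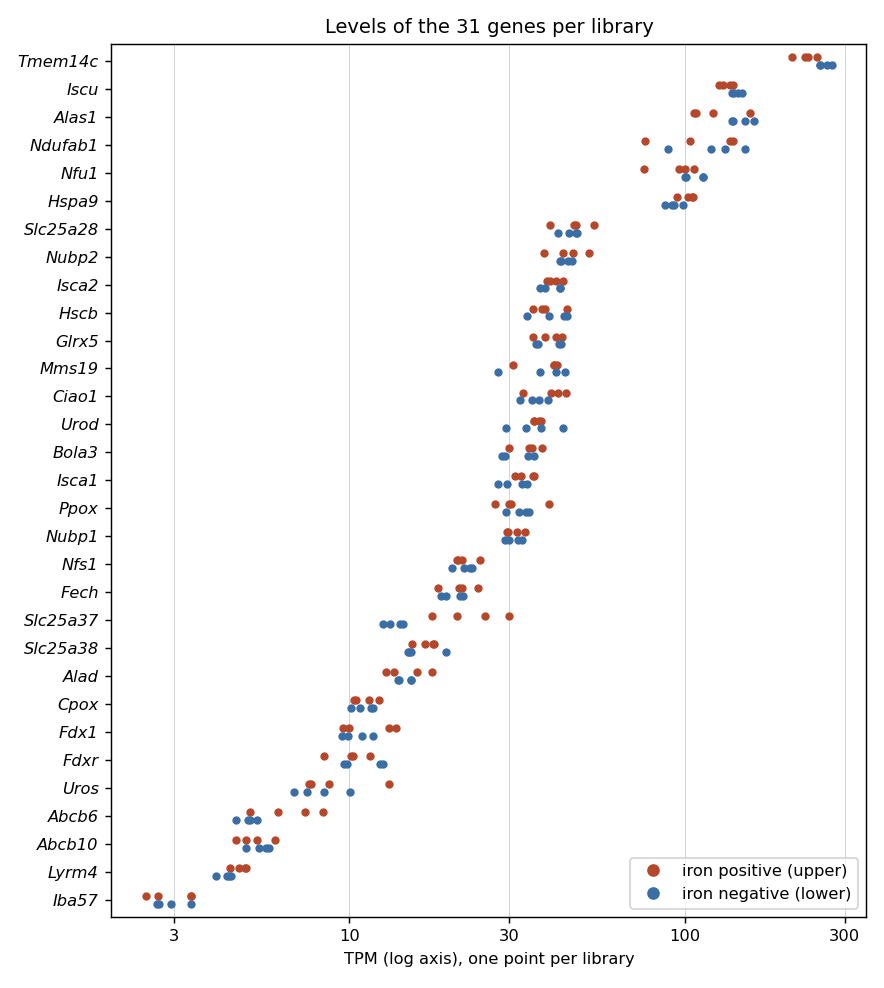
TPM of each of the 31 genes in each library on a log axis, ordered by the mean over 8 libraries, with iron positive points above and iron negative points below the line of each gene. The order runs from Tmem14c (mean 246 TPM) to Iba57 (mean 2.94 TPM), and Slc25a37 and Tmem14c are the genes whose iron positive and iron negative points do not mix.

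Part of several of these levels lies outside coding transcripts. Coding transcripts held, beside the small share of Mms19, 24.5% of the TPM of Slc25a37, 39.4% of Ppox, 44.5% of Ndufab1 and 50.2% of Nfu1, and the rest was in retained intron, decay and processed forms. The value of Slc25a37 includes its short form Slc25a37-202. Over coding transcripts alone Alas1 stood at 81.8 TPM, below Hspa9 at 92.0 TPM, and Mms19 at 2.63 TPM was the lowest of the 31. Shares of single transcripts were tested for 58 transcripts of 23 genes. For any to pass adjustment, 34 would have to reach the smallest possible p together. Of the 58, 0 passed and 3 reached that p of 0.0286 (exact permutation test, two-sided). Besides Slc25a37-204 these were Bola3-207, at 14.5% ± 1.0 of the gene in iron positive and 18.0% ± 2.2 in iron negative libraries, and Mms19-216, at 11.01% ± 0.65 in iron positive and 13.8% ± 1.73 in iron negative libraries (SD, n = 4 each). Coding genes on the opposite strand overlap 8 of the 31 genes (Uros, Cpox, Ppox, Abcb10, Nfs1, Lyrm4, Nubp1 and Mms19). Strand use is not stated, so reads of both genes in the overlap cannot be told apart. Nfs1 also shares bases with Gm28036 on its own strand, which averaged 12.7 CPM.

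The other genes of the 2 pathways were taken from lists of known members. Of 17 other heme genes tested 1 was higher and 1 lower, which is near the shares of all genes (7.91% and 5.08%), and DESeq2 called 2 higher and 1 lower. Slc48a1, which carries heme out of the phagolysosome, had 347, 90.7, 303 and 133 CPM in iron positive libraries, against 69.1, 68.0, 73.8 and 65.6 CPM in iron negative libraries. The fractions did not overlap, 3L and 4R were again the highest, and the log2 fold change was 1.66 ± 0.41 (adjusted p = 0.0411; 0.0692 without iron positive 3L and 0.107 without 4R). Hebp1, a heme-binding protein, had 59.5, 54.9, 61.3 and 58.8 CPM in iron positive libraries, against 67.7, 71.1, 76.2 and 69.3 CPM in iron negative libraries, a log2 fold change of -0.28 ± 0.06 (adjusted p = 0.0243), which the macrophage scaling reduced to -0.07. Hmox1, heme oxygenase, which opens the heme ring, had 5174, 700, 4230 and 1455 CPM in iron positive libraries, against 871, 482, 567 and 695 CPM in iron negative libraries. Its fractions overlapped, since iron positive 3R lay below iron negative 3L, and its log2 fold change of 2.14 ± 0.61 had adjusted p = 0.0591 in edgeR and 0.00177 in DESeq2. Abcb6, Slc48a1 and Hmox1 ranked in the same order over the iron positive libraries (3L, 4R, 5L, 3R), and Slc25a37 also had 3L and 4R as its highest. Abcb6 and Hmox1 were named after their values were seen, and the share of all genes with this order was not counted. Iron positive 3R also had the lowest summed macrophage level (21210 CPM) and the highest endothelial one (1574 CPM) of its fraction. The part of cell types in this order was not tested.

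Without the block, genes that assemble or receive clusters stayed uncalled beyond the 31. Of 15 other iron-sulfur assembly genes tested none passed in edgeR or DESeq2, and 2 had an unadjusted p under 0.05. The highest expressed, Ciao2a, a cytosolic targeting factor, and Bola2, a partner of cytosolic glutaredoxin, had log2 fold changes of 0.05 and -0.05. With the block 1 of the 15 was lower, Sdhaf1, an assembly factor of succinate dehydrogenase (adjusted p = 0.0214). Of 23 proteins that carry clusters none passed in either tool, 1 had an unadjusted p under 0.05, and their estimates spanned -0.28 to 0.07. Sdhb and Ndufs8, subunits of the respiratory chain, had log2 fold changes of -0.11 and -0.02. Of 18 mitochondrial genes with no heme or cluster none passed in edgeR, 3 had an unadjusted p under 0.05, DESeq2 called 2 lower, and the block called the chaperonins Hspd1 and Hspe1 lower (adjusted p = 0.0113 and 0.0140). A further list held proteins that carry heme and Por, which passes electrons to such proteins. Of its 12 genes tested 1 was higher and 2 were lower, against 13.0% of all genes called in either direction. DESeq2 called 3 of them higher and 3 lower, the block 1 higher and 4 lower (with Ptgs2 and Cyp27a1), and the macrophage scaling 4 higher and 0 lower. Nos2, inducible nitric oxide synthase, had 13.0, 11.2, 29.7 and 5.86 CPM in iron positive libraries, against 3.005, 5.41, 3.49 and 2.52 CPM in iron negative libraries (log2 fold change 2.05 ± 0.50, adjusted p = 0.0379). Cybb, the heme subunit of NADPH oxidase, averaged 486 CPM in iron positive and 713 CPM in iron negative libraries (-0.55 ± 0.10, adjusted p = 0.0219). Ptgs1, cyclooxygenase 1, averaged 216 CPM in iron positive and 362 CPM in iron negative libraries (-0.75 ± 0.14, adjusted p = 0.0221). With the macrophage scaling neither Cybb (-0.35) nor Ptgs1 (-0.54) passed. As with Slc25a37, the edgeR calls of Slc48a1, Hebp1, Nos2, Cybb and Ptgs1 were absent without any 1 of the iron negative libraries (adjusted p of 0.0549 to 0.108). Without iron positive 4R the calls of Hebp1 and Cybb (both 0.0509) and of Nos2 (0.0608) were absent, and that of Nos2 was absent without iron positive 3L (0.0555) or 3R (0.0504) as well.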

How the data were processed

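Bulk RNA from 4 iron positive and 4 iron negative cell fractions was sequenced. Abundances were made with kallisto 0.46.2 on mm10, per the submitters' processing notes. The transcript release was not given in the sources used. Per the file headers, every library has a deposited table of estimated counts, neither whole nor normalized. Beside them stand TPM values, set by the authors' run to effective length and library depth, and transcript lengths. Replicates were not pooled.

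The 119414 transcripts were matched, by identifier without version, to mouse GENCODE release 21 (GRCm38). The 2686 unmatched ones held 0.888% to 0.961% of a library's estimated counts and were left out. Counts were summed per gene without regard to strand, rounded, kept with filterByExpr and scaled with TMM factors. The test was edgeR 4.0.16 (R 4.3.3), quasi-likelihood with robust dispersions, on the fraction alone, with Benjamini-Hochberg adjustment over 13343 genes and a threshold of 0.05. Adjusted p-values come from this fit where no other is named. An SE is the size of the coefficient divided by the root of F, an approximation that the 95% intervals use as well. Fold changes are iron positive over iron negative. Totals were 19.0 to 24.3 M counts. For members with few counts (121 at the lowest, Lyrm4) counting error is not small against the spread of 4 libraries.

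Same-tag libraries correlated in their deviations from the fraction mean at 0.53 (3L), 0.521 (3R), 0.27 (4R) and 0.304 (5L), above the limit of 0.1, and no other pairing was higher for a library, so equal tags, as given in the labels, were taken to pair the libraries. The fit on the fraction alone, with its SEs and intervals, does not use this pairing, and the fit with the block does. Replicates differed beyond counting noise (chi-square per gene 9.61 or more). Alternatives were DESeq2 1.42.0, limma 3.58.1, other scalings, filters, length offsets, the block and each library left out. Added after seeing the data were DESeq2 with each library left out, the block without each tag, edgeR without robust dispersions, and coding transcripts only.

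The members and the gene lists were chosen with earlier results of these data known. Full values are given for members called with or without the block and for the 2 with the highest TPM in each role. In other lists called genes are named, or otherwise the 2 with the highest TPM. Abcb6, Fdxr, Fech, Slc25a38, Hmox1, Sdhaf1, Hspd1, Hspe1, Ptgs2 and Cyp27a1 were named further after their values were seen. Listed symbols not matched were Ciao3, Fdx2, Fam96a and Fam96b, which stand in the lists as Narfl, Fdx1l, Ciao2a and Ciao2b, Ndor1, a symbol of 2 gene identifiers, and Ahsp. No set test was run. The steps were tested on simulated data.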

Additional observations from a re-analysis of the deposited data

Results flagged for a closer look

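A check for a library far from the other 3 of its fraction was run on the 31 genes in both fractions, 62 groups of 4 values in all, and it marked 4. Chance marks about 1 in 20 such groups. Uros stood at 9.287 CPM in iron positive 4R, against 8.523 to 8.629 CPM in the other iron positive libraries. Abcb10 stood at 18.5 CPM in iron positive 3R, where the other 3 had 15.65 to 16.13 CPM. Isca2 was at 18.79 CPM in iron positive 3L and at 17.24 to 17.4 CPM in the others of that fraction. Urod was at 30 CPM in iron negative 4R and at 28.04 to 28.28 CPM in the remaining iron negative libraries. None of these genes was called, and the 4 values fall in 3 different tags. The gaps are 6.1% to 14.7% of the nearest other value, and their cause was not tested.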

How the results depend on the processing

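Without the block and with all libraries kept, 1 member was called higher and 0 lower by each tool, scaling and filter. Slc25a37 was called higher in 29 of 35 alternatives. Over all 35 its log2 fold changes were positive, at 0.54 to 1.13, with adjusted p between 2.1e-06 and 0.141. Of 1085 member values under alternatives, 170 uncalled ones changed sign, in 21 genes, and none did so with a call.

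Over all genes (1056 higher, 678 lower) DESeq2 called 1703 and 1070, limma voom 189 and 273, the stricter filter 486 and 353, and limma on log2(TPM + 1) 413 and 205. Lower calls numbered 350 with library totals, 406 with length offsets, 270 with limma on log2(TPM + 0.1) and 13 with the macrophage scaling. The median log2 fold change of the members was 0.04 with library totals, 0.024 with the stricter filter, 0.026 and 0.025 with limma on log2(TPM + 0.1) and log2(TPM + 1), and 0.195 with the macrophage scaling. The cause was not tested.

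With equal tags paired by a replicate block, 1632 genes were higher and 1265 lower, and 1 member was higher and 3 lower. With the block and the macrophage scaling 2815 genes were higher and 174 lower, 4 members were higher (Slc25a37, Abcb6, Fech and Hspa9) and their median was 0.187. With the block on coding transcripts only, 1 member was lower (Tmem14c). Without a tag the block called 2 members higher and 1 lower (without 3R), 0 higher and 0 lower (without 4R) and 1 higher and 2 lower (without 5L). The block changed no other call among the members.

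With 1 library left out, edgeR called 0 to 1412 genes higher and 0 to 972 lower, 0 to 1 member higher and 0 to 1 lower, and the members' median ranged from -0.047 to -0.003. No gene was called higher without iron negative 3L or 4R, where 2026 and 2075 genes were higher at an unadjusted p under 0.05 and DESeq2 called 1418 and 1455. Leaving out 3L, 3R or 4R of the iron negative fraction left no gene called lower, although 1495, 1451 and 1605 were lower at an unadjusted p under 0.05 and DESeq2 called 743, 755 and 746. DESeq2 with 1 library left out called 1 to 2 members higher and 0 to 2 lower. No transcript share passed under any alternative, but 34 of the 58 would have to reach the smallest p of 0.0286 together for any to pass, and a sign flip over 4 tags cannot give a p below 0.125.

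The depth limits the least expressed members (Lyrm4, Fdx1, Iba57 and Uros) most, and the small number of libraries, 4 per fraction, limits the precision of all members.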
